A study of Mus musculus with 92 samples.

Results

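The 10 genes described here encode ligands, receptors and extracellular regulators of TGF-β, myostatin and activin signaling: the ligand genes Tgfb1, Tgfb2 and Tgfb3, the receptor genes Tgfbr1 and Tgfbr2, the activin-type ligand genes Mstn and Inhba, the inhibitor gene Fst, the receptor gene Acvr2b and the matrix gene Ltbp2. They were taken by symbol from a table of 23811 gene rows, and each symbol stood on 1 row. RNA from the tibialis anterior, a muscle of the lower hind leg, was sequenced after a freeze injury given to the left leg of male C57BL/6J mice at 10 weeks of age with a steel probe cooled on dry ice, and the unexposed right leg of the same mouse served as the control. No allele, drug or transgene separated the groups, and an animal's control muscle was therefore taken from a body that carried the injury in the other leg. Collection took place 9 times, at 3, 10 and 24 h on the first day, then at 48 and 72 h, and then weekly at 168, 336, 504 and 672 h, and each of these 9 time points had 2 to 5 injured and 3 to 5 control muscles. In total 37 injured and 39 control muscles of 40 animals were compared, and 36 animals gave both legs. Animals are numbered within each time point, so the same number at different times means different animals. An injured library at 168 h in which 334 genes were above 0, and in which Mstn alone of the members was above 0, was left out, as was a control library with no known time.

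TGF-β ligands are secreted in a latent form held in the extracellular matrix, and once released they bring together the type II receptor TGFBR2 and the type I receptor TGFBR1, which phosphorylates SMAD2 and SMAD3. Myostatin and the activins use the same SMADs through activin type II receptors such as ACVR2B. In skeletal muscle, myostatin is a fiber-derived brake on muscle mass, follistatin binds and blocks both activins and myostatin, and TGF-β1 is known for its part in fibrosis and in restraining myoblast fusion.

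The promoter sequences below show the region just before the transcription start of 4 members that behaved differently over time: Mstn, which was lower after injury, Tgfb2, which was higher for a short time, and Tgfb1 and Ltbp2, which were higher for days. RefSeq promoter windows (GRCm38.p6) matched 8 of the 10 members, and the 250 bases before the start are printed 5′ to 3′ on the gene's strand. Capitals mark matches on either strand to 4 short motifs: CAGAC (the Smad box, GTCTG on the other strand), TGANTCA (a loose form of the AP-1 site, with any middle base), CANNTG (the E-box bound by myogenic factors) and TATAAA (the TATA box).
Mstn, chr1:53061390-53061639, plus strand: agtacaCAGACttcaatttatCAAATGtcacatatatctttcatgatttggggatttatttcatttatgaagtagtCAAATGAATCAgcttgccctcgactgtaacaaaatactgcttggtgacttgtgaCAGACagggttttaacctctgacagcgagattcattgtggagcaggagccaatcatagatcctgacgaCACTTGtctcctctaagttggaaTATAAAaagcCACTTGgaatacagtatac
Tgfb2, chr1:186705990-186706239, minus strand: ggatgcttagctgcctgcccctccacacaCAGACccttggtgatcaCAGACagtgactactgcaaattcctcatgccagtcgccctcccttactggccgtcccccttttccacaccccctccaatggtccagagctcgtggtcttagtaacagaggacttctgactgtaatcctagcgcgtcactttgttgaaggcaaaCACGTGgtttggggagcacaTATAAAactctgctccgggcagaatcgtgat
Tgfb1, chr7:25686752-25687001, plus strand: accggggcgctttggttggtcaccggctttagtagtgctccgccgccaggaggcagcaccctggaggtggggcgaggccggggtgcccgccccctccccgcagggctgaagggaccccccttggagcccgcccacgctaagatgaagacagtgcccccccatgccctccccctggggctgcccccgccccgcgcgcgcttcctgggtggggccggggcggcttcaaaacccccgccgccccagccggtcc
Ltbp2, chr12:84876492-84876741, minus strand: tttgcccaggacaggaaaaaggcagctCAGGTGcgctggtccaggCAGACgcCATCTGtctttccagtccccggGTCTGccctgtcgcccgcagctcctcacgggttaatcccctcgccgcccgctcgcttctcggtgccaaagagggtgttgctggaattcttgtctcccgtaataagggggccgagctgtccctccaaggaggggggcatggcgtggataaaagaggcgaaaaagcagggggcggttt

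The Mstn window held 4 E-box matches, 2 Smad box matches and a TATA box that began 29 bases before the start. It also held 1 match to the loose AP-1 motif, TGAATCA, that overlapped an E-box. The Tgfb2 window held 2 Smad box matches, 1 E-box match and a TATA box at 31 bases, the Ltbp2 window held 2 Smad box and 2 E-box matches, and the Tgfb1 window held no match to any of the 4 motifs. G and C made up 38.4% of the Mstn window and 75.2% of the Tgfb1 window. Among all 32851 promoter windows of the same length, 66.2% held an E-box, 42.2% a Smad box, 12.4% a TATA box and 6.75% an AP-1 match, so most of these letters are common, and a match describes the sequence only.

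Expression is given as FPKM, fragments per kilobase of transcript scaled to the mapped total of the library, so levels can be compared between genes. In uninjured muscle Mstn was the member with the highest level, with a median of 12.8 FPKM over the 39 control muscles (range 7.14 to 28.5). Tgfb3 followed at 7.39 FPKM (1.06 to 9.03), then Tgfbr1 at 5.24 (1.25 to 7.61), Tgfbr2 at 3.35 (0.930 to 5.42), Tgfb2 at 2.61 (0.870 to 4.11) and Acvr2b at 1.67 (0.117 to 2.42). The ranges of neighbours in this order overlapped. The remaining members were scarce: Tgfb1 had a median of 0.589 FPKM (0 to 1.199), Fst of 0.334 (0.0580 to 1.25), Inhba of 0.0502 (0 to 0.202) and Ltbp2 of 0.0185 (0 to 0.0965).

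**Figure D1:**
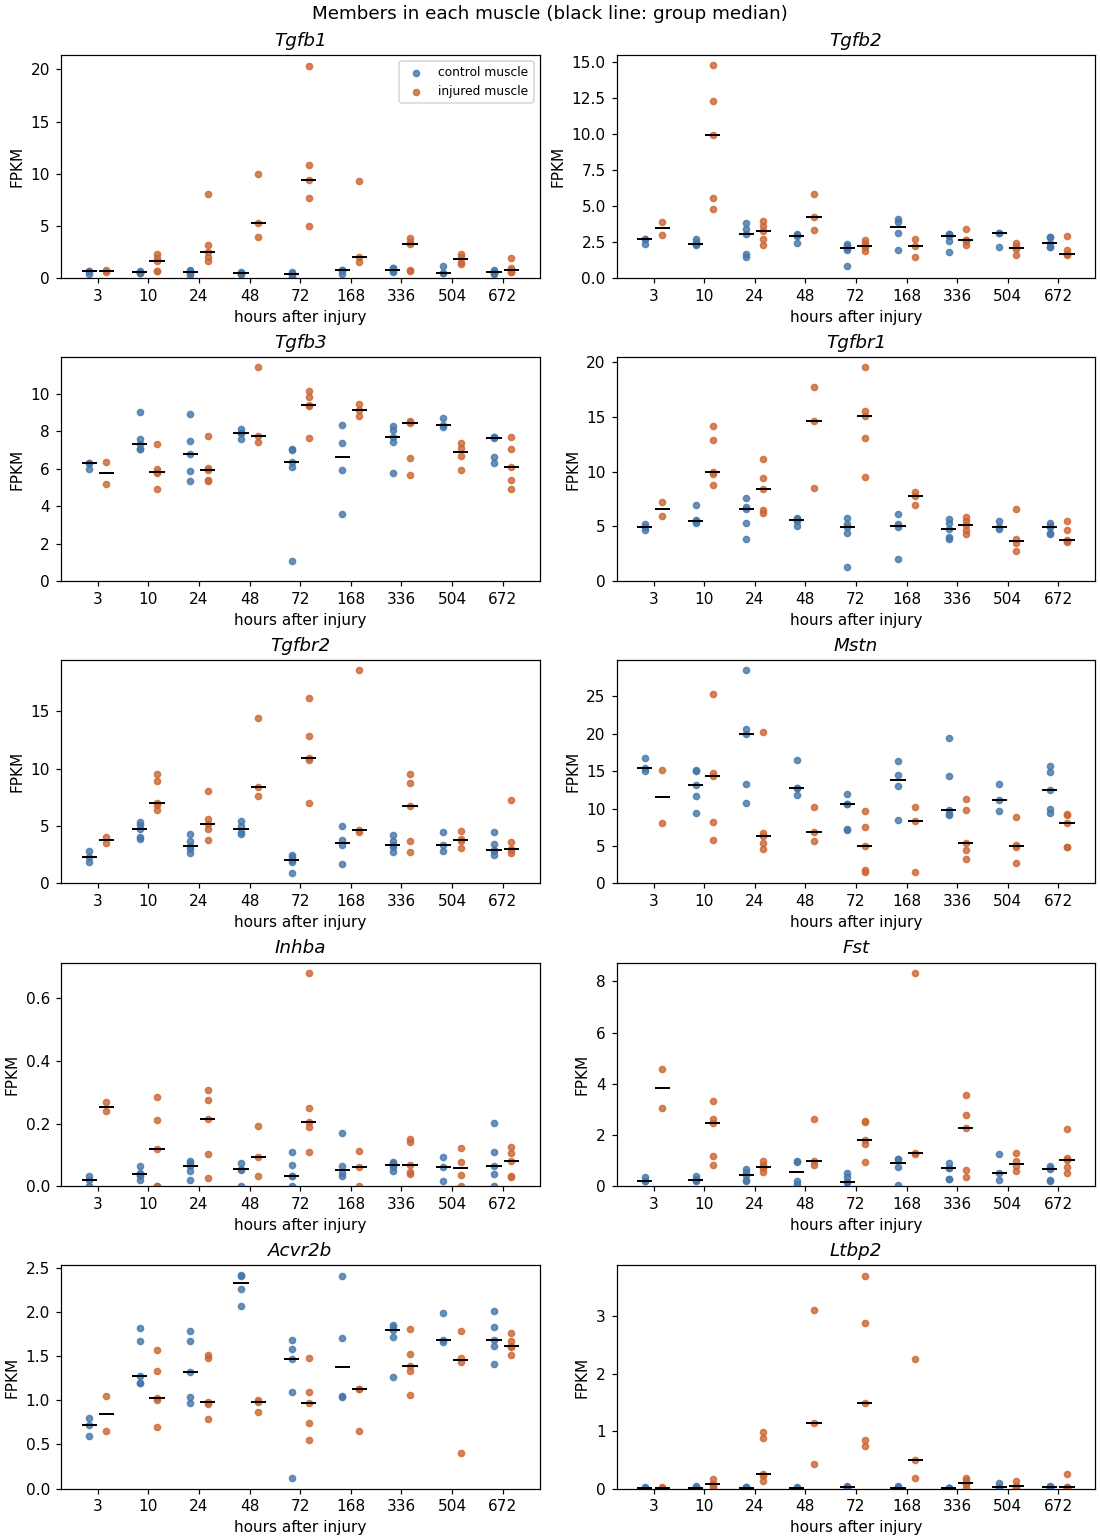
FPKM (y axis, linear) of the 10 members in every muscle at the 9 time points (x axis, hours), control muscles in blue, injured in orange, with a black line at each group's median. Tgfb1, Tgfbr1, Tgfbr2 and Ltbp2 reach their highest group medians among injured muscles at 72 h, Tgfb2 reaches its own at 10 h and Fst at 3 h, while injured Mstn and Acvr2b lie mostly below the controls.

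A gene was tested when the mean of at least 1 of the 18 groups reached 1 FPKM, which 12099 genes did. Inhba did not pass, so 9 members were tested. Tgfb1, Fst and Ltbp2 passed through injured groups alone (highest control group means 0.801, 0.726 and 0.0452 FPKM) and so had to be higher after injury at some time, and counts that include them are descriptions. Each difference is injured minus control on the log2(FPKM + 0.1) scale, which understates changes of low genes, with its standard error (SE) from limma, and a gene was called at a Benjamini-Hochberg adjusted p below 0.05 and a change of at least 2-fold.

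At 3 h, 1 of the 9 tested members was called higher (Fst) and none lower, against 1.69% and 0.0579% of all tested genes. At 10 h, Tgfb2 and Fst were called higher and none lower, against 11.8% and 0.438%. At 24 h, Tgfb1 and Ltbp2 were higher and Mstn was lower, against 17.6% and 0.661%. These early counts gave way to broader ones. At 48 h, 5 members were higher (Tgfb1, Tgfbr1, Tgfbr2, Fst and Ltbp2) and Acvr2b was lower, against 33.1% and 1.56%. At 72 h the same 5 genes were higher and Mstn was lower, against 50.2% and 0.612%, so that the share of members called higher was close to that of all genes. At 168 h, 4 members were higher (Tgfb1, Tgfbr2, Fst and Ltbp2) and Mstn was lower, against 21.6% and 1.95%.

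From 336 h on, limma with Benjamini-Hochberg adjustment called no member in either direction. Of all genes, 2.89% were then called higher and 0.0331% lower at 336 h. The same shares were 0.00827% and 0% by 504 h, then 0.0496% and 0.0331% in the last groups. Members with an unadjusted p under 0.05 numbered 5, 2 and 1 in these last 3 groups, beside 2337, 654 and 381 of all 12099 tested genes. The 5 at 336 h included Tgfb1, Fst and Ltbp2, which passed the filter through injured groups alone. When both legs of an animal were treated as a replicate block, Tgfb1 was called higher at 336 h (log2 difference 1.18, adjusted p = 0.033) and also at 10 h (1.03, adjusted p = 0.0315). Leaving out injured animal 01 or injured animal 02 at 336 h raised the count of members called higher to 2 (Tgfb1 and Fst).

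The median log2 difference of the 9 tested members took the values 0.21, 0.73, 0.47, 1.01, 1.86 and 0.84 from 3 through 168 h, beside -0.28, 0.20, 0.29, 0.63, 1.01 and 0.31 for all tested genes. The shift of all genes in these FPKM values was thus large at 48 and 72 h. Quantile normalization, which forces every muscle to the same distribution, moved the median of all genes at 72 h to -0.23. The count of members called at that time became 3 higher (Tgfb1, Tgfbr2 and Ltbp2) and 3 lower (Tgfb2, Mstn and Acvr2b). The shares of all genes called under that scaling are not given here, so these counts are descriptions.

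**Figure D2:**
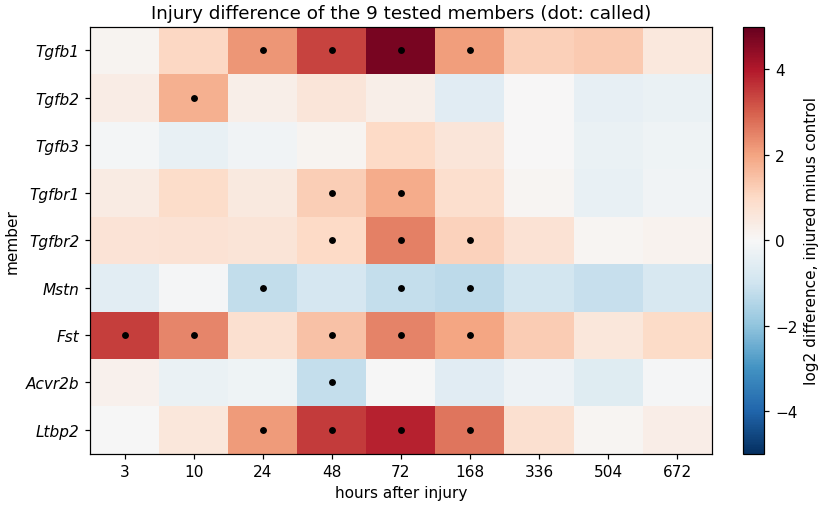
Log2 difference, injured minus control (colour), of the 9 tested members (rows) at the 9 time points (columns, hours), with a dot where the difference was called. Tgfb1 and Ltbp2 reach 4.73 and 3.84 at 72 h, Fst has its largest value of 3.47 at 3 h, and the Mstn row is negative throughout.

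Tgfb1, on chromosome 7 (mm9, 26472021 to 26490015), encodes TGF-β1, the ligand most tied to inflammation and scarring. At 72 h it was at 5.05, 7.69, 20.4, 10.8 and 9.38 FPKM in the 5 injured muscles (animals 01 to 05) and at 0.253, 0, 0.388, 0.642 and 0.401 FPKM in their control muscles, where the value of animal 02 is listed at 0. Every injured muscle was several times above every control muscle. The log2 difference at 72 h was 4.73 (SE 0.42, adjusted p = 3.02e-15). It was 4.27 without the control library numbered 02 at 72 h and that numbered 02 at 168 h, from different animals, which stood apart.

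From 10 through 72 h the Tgfb1 difference was larger at each time than at the time before. No single step up to 72 h passed limma's test between neighbouring times (adjusted p 0.285 to 0.494). Injured muscles ranged from 0.694 to 2.30 FPKM at 10 h, overlapping controls at 0.493 to 0.711. At 24 h they ranged from 1.62 to 8.10 against 0.328 to 0.786 (log2 difference 2.21, SE 0.42, adjusted p = 2.72e-05), and at 48 h they were at 5.28, 10.0 and 3.92 FPKM against 0.397 to 0.569 in 4 controls (log2 difference 3.38, SE 0.51, adjusted p = 1.21e-07). The groups did not overlap from 24 through 168 h, nor did they in the 504 h group, where injured muscles held 1.35 to 2.35 FPKM and controls 0.477 to 1.199 (adjusted p = 0.822). At 168 h the values were 9.30, 1.61 and 2.08 FPKM in animals 02, 03 and 04, and the log2 difference of 2.09 (SE 0.51, adjusted p = 0.00109) dropped to 1.33 (adjusted p = 0.127) without animal 02. Over all times, the injured leg was the higher one in 33 of 36 animals.

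Tgfb2, on chromosome 1 (mm9, 188447065 to 188529871), encodes TGF-β2. It differed most at 10 h, with 12.3, 4.82, 9.93, 14.8 and 5.59 FPKM in the injured muscles of animals 01 to 05 and 2.41, 2.76, 2.36, 2.52 and 2.34 FPKM in the controls. No injured value reached down to a control value, and the means of 9.49 ± 4.28 and 2.48 ± 0.17 FPKM (SD, n = 5 each) were 3.83-fold apart. The log2 difference was 1.77 (SE 0.24, adjusted p = 2.86e-08 by limma). By 24 h the groups overlapped, at 2.34 to 3.97 FPKM against 1.47 to 3.81, and the change of the injury difference from 10 to 24 h was -1.46 (SE 0.34, adjusted p = 0.0305). That test missed the threshold in 9 of the fits that each left out 1 library, as given in the closing section. At 72 h the groups overlapped (1.89 to 2.68 against 0.870 to 2.41 FPKM), and the sign of the difference depended on the scaling: 0.31 (adjusted p = 0.243) as deposited, -1.33 (adjusted p = 1.94e-06) after quantile normalization.

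Tgfb3, on chromosome 12 (mm9, 87397693 to 87419991), encodes TGF-β3 and had the highest control level of the ligand trio. Across all groups its means stayed between 5.52 and 9.28 FPKM, and it was called at no time point in the fit of all muscles. At 72 h, injured muscles held 9.82, 9.37, 7.66, 9.40 and 10.2 FPKM, above the controls at 6.11, 1.06, 6.98, 7.07 and 6.36 FPKM, of which 1.06 belonged to the library of animal 02. The log2 difference of 0.98 (SE 0.23, adjusted p = 0.000156) lay just under 2-fold. It was 1.05 to 1.13, past 2-fold and called, in 5 of the fits that each left out 1 library (control animal 01, 03, 04 or 05 or injured animal 03), fell to 0.48 without the 2 unlike control libraries, and turned to -0.18 after quantile normalization. In the controls of 10 h it was listed at 7.04 to 9.03 FPKM and in the injured muscles at 4.90 to 7.31 (adjusted p = 0.317).

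Tgfbr1, on chromosome 4 (mm9, 47366177 to 47427796), encodes the type I receptor kinase. At 72 h it was at 9.52, 13.0, 19.5, 15.1 and 15.5 FPKM in injured muscles and at 5.75, 1.25, 5.24, 4.35 and 4.94 FPKM in controls, with no overlap. The means of 14.5 ± 3.67 and 4.31 ± 1.78 FPKM (SD, n = 5 each) were 3.38-fold apart, with a log2 difference of 1.86 (SE 0.25, adjusted p = 9.95e-10). It was also called at 48 h, at 8.50, 14.7 and 17.7 FPKM against 5.02 to 5.74 (log2 difference 1.23, SE 0.30, adjusted p = 0.000381). An earlier, smaller difference was present at 10 h, when injured muscles held 8.74 to 14.2 FPKM and controls 5.31 to 6.92 without overlap (log2 difference 0.92, adjusted p = 0.00371, under 2-fold). Both calls, at 48 and 72 h, fell under 2-fold after quantile normalization (0.61 and 0.82) with adjusted p of 0.0107 and 2.6e-05.

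Tgfbr2, on chromosome 9 (mm9, 115996813 to 116084481), encodes the ligand-binding type II receptor. Injured muscles at 72 h held 6.98, 10.9, 16.1, 12.8 and 10.7 FPKM and controls 2.46, 0.930, 1.90, 2.07 and 2.27 FPKM. The means of 11.5 ± 3.34 and 1.93 ± 0.59 FPKM (SD, n = 5 each) were 5.98-fold apart, the largest difference among the 3 receptor genes, with a log2 difference of 2.54 (SE 0.29, adjusted p = 9.73e-12). That control mean was the lowest of the series for Tgfbr2. At 48 h the control mean was 4.80 FPKM and the injured mean 10.15 FPKM. At 48 h the difference was smaller, at 7.64, 14.4 and 8.38 FPKM against 4.28 to 5.42 (log2 difference 1.01, SE 0.35, adjusted p = 0.0114), and after quantile normalization it was 0.33 (adjusted p = 0.247). That call was lost without injured animal 04 (0.73, adjusted p = 0.136) and fell under 2-fold without control animal 01 or 05 (0.98 and 0.96). At 168 h the call turned on animal 02, whose injured muscle held 18.6 FPKM while those of animals 03 and 04 held 4.45 and 4.65 FPKM among controls of 1.74 to 5.02. Without it the log2 difference of 1.14 (adjusted p = 0.00783) became 0.48 (adjusted p = 0.486), and without control animal 04 it was 0.86 (adjusted p = 0.0707). The injured leg was higher in 33 of 36 animals over all times.

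A second table listed transcripts. It held 1 row for each member, identical to the gene row for 9 of them. For Tgfbr2, which the mm9 gene models (GENCODE) list with 2 transcripts, the listed transcript had lower values than the gene. Its median share of the gene's FPKM lay between 21.3% and 43.1% in the control groups and between 15.1% and 40.8% in the injured groups. At 72 h it averaged 4.47 FPKM in injured and 0.738 in control muscles, and its median share was 37.2% and 38.5%, so the row differed between legs about as the gene did. At 168 h the shares were 8.50% to 21.4% in 3 injured and 8.23% to 49.0% in 4 control muscles and overlapped. The other Tgfbr2 transcript was not analysed here.

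Fst, on chromosome 13 (mm9, 115242470 to 115248938), encodes follistatin, which sequesters activins and myostatin. It was the only member called at 3 h, when the 2 injured muscles held 4.58 and 3.06 FPKM and the 3 controls 0.189, 0.216 and 0.354 FPKM. The means of 3.82 ± 1.07 and 0.253 ± 0.088 FPKM were 15.1-fold apart (log2 difference 3.47, SE 0.74, adjusted p = 0.00179). With animal 11 left out, a single injured muscle remained, assumed to vary like the other groups, and the log2 difference was 3.19 (adjusted p = 0.15). At 10 h injured muscles held 2.63, 0.827, 3.33, 2.48 and 1.17 FPKM and controls 0.232, 0.274, 0.386, 0.192 and 0.224 FPKM (log2 difference 2.46, SE 0.51, adjusted p = 0.000187). The groups were thus apart at both early times.

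Fst then came closer to control levels at 24 h, at 0.564 to 0.991 FPKM against 0.201 to 0.683 (log2 difference 0.80, adjusted p = 0.227). It was again apart at 72 h, at 0.922, 2.52, 2.54, 1.65 and 1.81 FPKM against 0.515, 0.154, 0.156, 0.155 and 0.334 (log2 difference 2.48, SE 0.51, adjusted p = 2e-05). The dip between these times did not pass a test: no change of its injury difference between neighbouring time points had an adjusted p below 0.05. At 48 h the call (log2 difference 1.46, adjusted p = 0.0408) was lost without control animal 04 or 05 or without injured animal 04 (adjusted p 0.127, 0.195 and 0.282). At 168 h, 8.32 FPKM in injured animal 02 stood beside 1.28 and 1.27 in animals 03 and 04, and the difference of 1.96 (adjusted p = 0.0108) was 1.08 without that muscle (adjusted p = 0.369) and 1.28 without control animal 04 (adjusted p = 0.122). After quantile normalization the 72 h difference was 0.73 (adjusted p = 0.13).

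Mstn, on chromosome 1 (mm9, 53118507 to 53124923), encodes myostatin, and its promoter window above is the richest of the 4 in E-boxes. The injured mean lay below the control mean at 8 of 9 time points, 10 h being the exception with 13.7 ± 7.55 against 12.9 ± 2.46 FPKM (SD, n = 5 each). At 24 h injured muscles held 6.33, 5.37, 20.2, 4.64 and 6.80 FPKM and controls 20.0, 20.6, 28.5, 13.3 and 10.8 FPKM, so that all but animal 03 lay below the lowest control, and in animal 03 too the injured leg was lower. The log2 difference was -1.25 (SE 0.40, adjusted p = 0.0109). The control muscles of 24 h had the highest Mstn control group mean of the series, 18.7 FPKM. Against the controls of all times pooled, the 24 h difference was -0.78 (limma adjusted p = 0.0228), under 2-fold.

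At 72 h, Mstn was at 4.997, 9.72, 1.56, 1.77 and 7.60 FPKM in injured muscles and at 11.97, 7.23, 10.6, 7.14 and 10.7 FPKM in controls. The groups overlapped, since the injured values of animals 02 and 05 lay above the 2 lowest controls, and animal 02 was the 1 animal of 5 in which the injured leg was higher. The difference of -1.19 (SE 0.40, adjusted p = 0.00617) was -0.86 (adjusted p = 0.0533) without injured animal 03 and -0.90 (adjusted p = 0.044) without injured animal 04. At 168 h, 1.53, 8.41 and 10.2 FPKM stood against 8.53, 13.1, 16.4 and 14.5 (difference -1.30, SE 0.48, adjusted p = 0.0299), and the call was lost without any of control animals 03, 04 and 05 (adjusted p 0.052, 0.0844 and 0.0597) or injured animal 02 (-0.46, adjusted p = 0.673). The lower injured level was still visible in the values of the late times: at 504 h injured muscles held 8.91, 2.77, 5.13 and 4.82 FPKM and controls 9.66, 11.2 and 13.3, and at 672 h injured muscles held 4.91 to 9.29 and controls 9.40 to 15.7, both without overlap. Neither passed the test across all genes (differences of -1.16 and -0.80, adjusted p = 0.822 and 1).

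Taking legs of the same animal together, Mstn was lower in the injured leg of 31 of 36 animals, which included all 5 at 24 h, all 5 at 672 h and all 3 each at 48, 168 and 504 h. Mstn is made by muscle fibers, and in bulk tissue fewer fibers and less RNA per fiber cannot be told apart. The 6 fiber markers (Ckm, Acta1, Mylpf, Tnnt3, Pvalb and Actn3) summed to 39510 to 53460 FPKM in injured and 55690 to 79120 in control muscles at 24 h, and to 20040 to 55280 against 51110 to 68980 at 72 h. At 672 h the sums were 59400 to 85260 and 61820 to 94790 and overlapped, while Mstn did not. In the injured muscle of animal 03 at 504 h the sum was 1933 FPKM with 5 of 6 markers listed at 0, and its Mstn value of 2.77 was the lowest of that group. That library had 8886 genes above 1 FPKM, and an exact 0 in these values need not mean absence, so its marker sum may not show fiber content. The part of fiber content in the Mstn values was not tested.

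**Figure D3:**
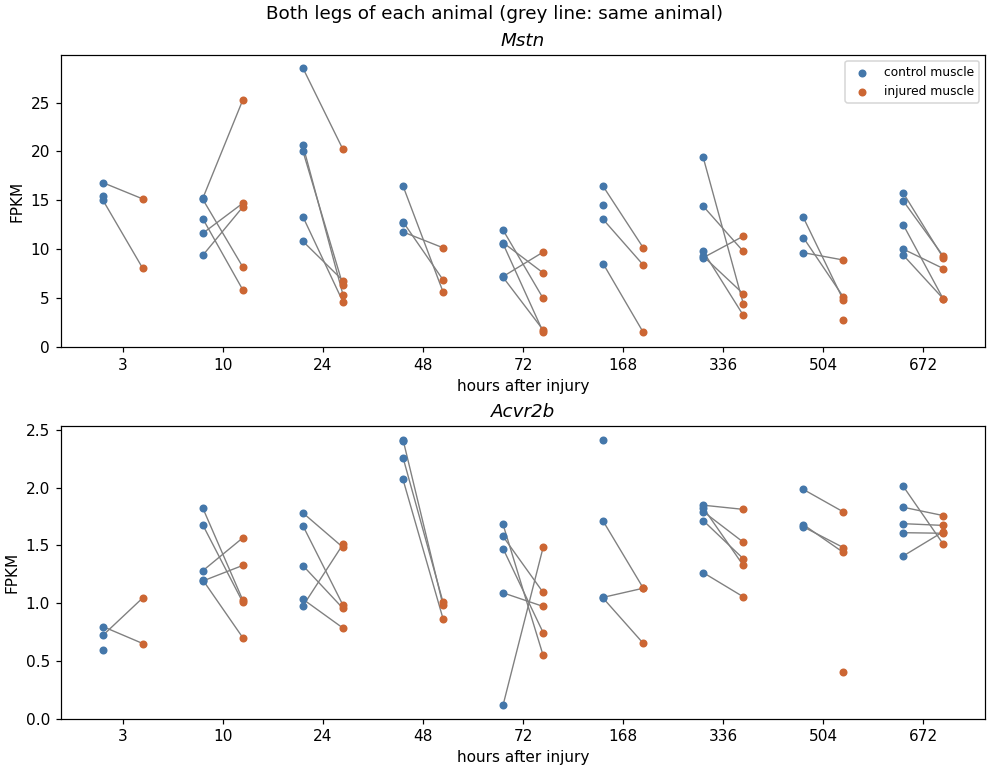
FPKM (y axis, linear) of Mstn (top) and Acvr2b (bottom) in the control leg (blue) and injured leg (orange) of each animal at the 9 time points (x axis, hours), with a grey line joining legs of the same animal. Most lines descend: the injured leg was lower in 31 of 36 animals for Mstn and in 29 of 36 for Acvr2b.

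Acvr2b, on chromosome 9 (mm9, 119311619 to 119342624), encodes the activin type II receptor through which myostatin signals. It was called at 48 h alone, at 1.01, 0.981 and 0.865 FPKM in injured muscles against 2.26, 2.40, 2.42 and 2.07 FPKM in controls. The means of 0.951 ± 0.076 (n = 3) and 2.29 ± 0.16 FPKM (SD, n = 4) were 2.40-fold apart, and the difference was -1.18 (SE 0.37, adjusted p = 0.00586). The control muscles of 48 h had the highest Acvr2b group mean of the series, and against the controls of all times pooled the 48 h difference was -0.53 (adjusted p = 0.145). At 72 h the groups overlapped at 0.548 to 1.48 against 0.117 to 1.68 FPKM, where 0.117 belonged to control animal 02. That difference was -0.03 as deposited (adjusted p = 0.944) and -1.77 after quantile normalization (adjusted p = 1.33e-07).

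Inhba, on chromosome 13 (mm9, 16106308 to 16119044), encodes the chain that forms activin A. It stayed low in every muscle, between 0 and 0.680 FPKM, and in 8 of the 76 muscles it was listed at 0. At 3 h the injured muscles held 0.269 and 0.240 FPKM and the controls 0, 0.0335 and 0.0185. At 72 h the injured muscles held 0.204, 0.249, 0.190, 0.680 and 0.108 FPKM and the controls 0.109, 0, 0.0673, 0.0334 and 0.0327, which touched at 0.108 and 0.109. With no filter on low values, the 72 h difference was 1.27 (SE 0.31, adjusted p = 0.000462 over 23811 genes) and the 3 h difference 1.60 (SE 0.45, adjusted p = 0.0669), at levels where few fragments stand behind a value.

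Ltbp2, on chromosome 12 (mm9, 86124162 to 86217445), encodes a fibrillin-associated matrix protein of the latent TGF-β binding protein family that, unlike its relatives, does not bind latent TGF-β. It was nearly absent from control muscle, at 0 to 0.0965 FPKM. At 72 h the injured muscles held 0.843, 1.49, 3.71, 2.89 and 0.746 FPKM and the controls 0.0222, 0.00341, 0.0208, 0.0412 and 0.0101 (log2 difference 3.84, SE 0.38, adjusted p = 1.45e-13). The groups were also apart at 24 h, at 0.137 to 0.994 against 0 to 0.0302 (2.13, SE 0.38, adjusted p = 9.08e-06), at 48 h, at 0.430 to 3.12 against 0.00365 to 0.0215 (3.51, SE 0.46, adjusted p = 4.36e-09), and at 168 h, at 2.26, 0.490 and 0.187 against 0 to 0.0371 (2.66, SE 0.46, adjusted p = 9.33e-06). With a pseudocount of 1 the differences at 24 and 168 h were 0.53 and 0.82, under 2-fold. By 504 h the groups overlapped at 0.0144 to 0.128 against 0.00756 to 0.0965 FPKM.

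Several markers of other cell types moved with these genes. The 6 macrophage markers summed to 132 to 489 FPKM in injured and 1.74 to 7.92 in control muscles at 72 h, and all 6 were called higher from 24 to 168 h. Of all tested genes, 17.6%, 33.1%, 50.2% and 21.6% were called higher at 24, 48, 72 and 168 h. Any marker whose control group means all lay under 1 FPKM passed the filter through injured groups alone. The marker counts are therefore descriptions. The 6 fibroblast markers summed to 302 to 650 against 21.4 to 42.0 FPKM at 72 h, with all 6 called higher. The 4 neutrophil markers were all called higher already at 3 h, against 1.69% of all tested genes. They then summed to 52.6 to 236 against 1.07 to 2.19 FPKM. The 4 endothelial markers had 1 called higher at 72 h. The 5 myogenic precursor markers (4 of them tested) summed to 25.2 to 125 against 8.23 to 23.9 FPKM at 10 h and to 38.9 to 103 against 2.08 to 8.98 at 72 h. Of the 3 T cell markers, 2 were tested. At 72 h all 3 summed to 0.326 to 1.41 FPKM in injured against 0 to 0.191 in control muscles. Their sum reached 25.4 in injured animal 02 of 168 h, beside 0.559 and 2.21 in animals 03 and 04. No control muscle had a T cell sum above 0.288 FPKM. Both tested markers therefore passed the filter through injured groups alone and had to be higher at some time. Their calls as higher, made at 72 and 168 h, are descriptions. Cd3e was listed at 0 in 24 control and 15 injured muscles. No macrophage, fibroblast, neutrophil or endothelial marker was listed at 0 in any muscle. The fiber marker Acta1, in contrast, was listed at 0 in 2 control and 3 injured muscles, so an exact 0 in these values need not mean absence. The part of these cells in the members' values was not tested.

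The animals of 168 and 336 h showed this side by side. At 336 h, injured Tgfb1 was at 0.836 and 0.657 FPKM in animals 01 and 02 and at 3.82, 3.44 and 3.25 in animals 03 to 05, with Fst at 0.341 and 0.613 against 2.78, 2.28 and 3.58, and Tgfbr2 at 2.77 and 3.70 against 8.73, 6.77 and 9.48. The same muscles of animals 01 and 02 had macrophage marker sums of 3.01 and 2.90 FPKM and fibroblast sums of 37.6 and 43.7, where animals 03 to 05 had 19.6 to 25.0 and 566 to 608. At 168 h, injured animal 02 had sums of 230 and 1488 FPKM beside 16.6 to 20.2 and 183 to 233 in animals 03 and 04. All genes of that library summed to 828110 FPKM, against 391903 and 403927 in the injured libraries of animals 03 and 04. It also had 2 fiber markers listed at 0. Its values may therefore not be on the same scale, and the part of this in its high values was not tested. Mstn did not follow this split at 336 h: it was at 4.46 and 11.3 FPKM in animals 01 and 02 and at 5.46, 3.27 and 9.80 in animals 03 to 05.

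**Figure D4:**
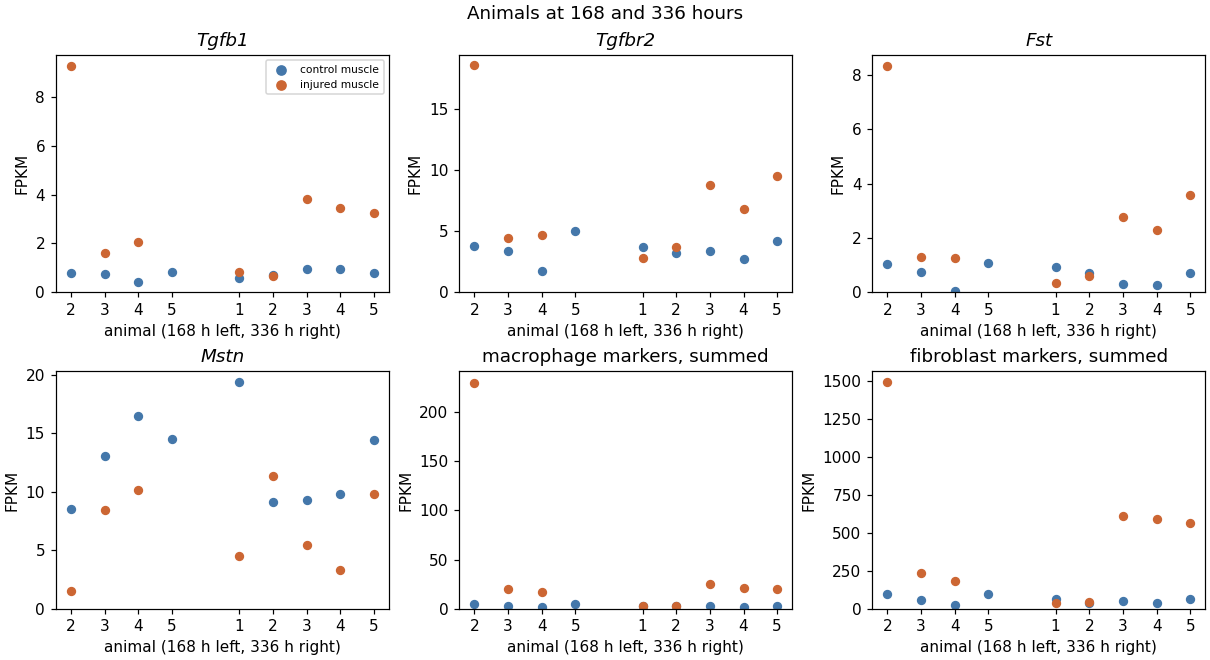
FPKM (y axes, linear) of Tgfb1, Tgfbr2, Fst and Mstn and the summed FPKM of macrophage and fibroblast markers in each animal (x axis) at 168 h (left) and 336 h (right), control leg in blue and injured leg in orange. Injured animal 02 at 168 h, with Tgfb1 at 9.30 FPKM, and injured animals 03 to 05 at 336 h stand above the rest in Tgfb1, Tgfbr2, Fst and the fibroblast sum. In the macrophage sum only injured animal 02 at 168 h stands apart. There, injured animals 03 to 05 at 336 h (19.6 to 25.0 FPKM) overlap injured animals 03 and 04 at 168 h (16.6 and 20.2). The library of injured animal 02 at 168 h had the highest FPKM sum of the series, 828110.

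The change of the injury difference between neighbouring time points was tested to see when these genes turned. From 72 to 168 h, 3 members changed: Tgfb1 by -2.65 (SE 0.66, adjusted p = 0.00246), Tgfbr2 by -1.39 (SE 0.45, adjusted p = 0.0132) and Tgfbr1 by -1.02 (SE 0.39, adjusted p = 0.0306), in a step where 41.1% of all genes passed. With the replicate block Tgfb2 joined them (-0.86, adjusted p = 0.0305). The Tgfbr1 change was near the threshold: it missed it in 7 of the fits that each left out 1 library, those without control animal 02 (-0.63, adjusted p = 0.145) or injured animal 03 at 72 h, or without control animal 03, 04 or 05 or injured animal 02 or 03 at 168 h (adjusted p 0.0525 to 0.093), and with no filter on low values (adjusted p = 0.0507). Tgfbr2 missed it without either of injured animals 03 and 04 at 168 h (adjusted p 0.0822 and 0.0725) and without the 2 unlike control libraries (-1.10, adjusted p = 0.0588). With upper quartile scaling and with quantile normalization both receptors missed it, Tgfbr1 at -0.37 and -0.33 (adjusted p 0.378 and 0.391) and Tgfbr2 at -0.75 and -0.61 (adjusted p 0.0809 and 0.15). From 10 to 24 h only Tgfb2 changed, against 0.322% of all genes.

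In the other steps no member passed: 0.81% of all genes did so from 3 to 10 h, 0.769% from 24 to 48 h, 1.73% from 48 to 72 h, 0.314% from 168 to 336 h, and 0% in each step after 336 h. With the replicate block, Tgfb2 passed from 3 to 10 h (1.39, adjusted p = 0.0223, against 0.0704 without it) and Tgfbr2 from 48 to 72 h (1.52, adjusted p = 0.0182, against 0.0639). Over all 9 time points together, an F test found that the injury difference varied for Tgfb1, Tgfb2, Tgfb3, Tgfbr1, Tgfbr2, Fst and Ltbp2 (adjusted p from 2.92e-09 to 0.0363), as for 63.1% of all genes, and the adjusted p was 0.586 for Mstn and 0.366 for Acvr2b. The Fst result had the largest of these p-values and was above the threshold in 10 of the fits that each left out 1 library.

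The control leg was not constant either. Among the 9 control groups, Tgfbr2 (adjusted p = 0.0116) and Acvr2b (adjusted p = 0.0177) differed by an F test, as did 21.5% of all genes. Acvr2b control means ran from 0.704 FPKM at 3 h to 2.29 at 48 h, and Tgfbr2 control means from 1.93 at 72 h to 4.80 at 48 h. Without control animal 02 at 72 h the Tgfbr2 test gave 0.0761, and without control animal 10 at 3 h the Acvr2b test gave 0.052.

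Across the 18 group means, which share muscles and scaling, the members with the most similar courses were Tgfb1 and Ltbp2 (Pearson r = 0.94), Tgfbr1 and Tgfbr2 (0.87) and Tgfb1 and Tgfbr2 (0.86), and the most opposed were Tgfb1 and Mstn (-0.78). These are descriptions over 18 points. Outside the member list, the tested genes closest to each member were Evl, Crlf2 and Rab43 for Tgfb1 (0.98 each), Wdfy4, Kcnk13 and Cd200r4 for Ltbp2 (0.99 each), Bmpr1b (0.94), Fam179a (0.90) and Ets2 (0.90) for Tgfb2, and Rhoj (0.95), Dio2 (0.94) and Tnfaip6 (0.91) for Fst. For the receptors they were Rlim (0.96), Cltc (0.95) and Uhrf1bp1l (0.95) for Tgfbr1, Zfp217, Ss18 and Pcdhgc3 (0.95 each) for Tgfbr2, and Fzd7 (0.88), Ccrl2 (0.87) and Pkdcc (0.86) for Acvr2b. Mstn was closest to Spns2 (0.89), Gpcpd1 (0.89) and Gpt2 (0.88), and Tgfb3 to Ilvbl (0.89), Ltbp3 (0.87) and Ccng2 (0.86). The courses of Mstn, Tgfb3 and Acvr2b were thus matched less closely by any gene than those of Tgfb1 and Ltbp2.

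A wider list of 48 pathway genes, of which 39 were tested, gives the surroundings of the 10 members. Of the 39, the number called higher was 1, 10, 8, 14, 25, 9 and 1 from 3 through 336 h and 0 in the last 2 groups, while 3 were called lower, all in the 168 h comparison. Over all tested genes the shares called higher were 1.69%, 11.8%, 17.6%, 33.1%, 50.2%, 21.6% and 2.89% in the same order, so that 8, 14 and 9 of 39 at 24, 48 and 168 h were near the share of all genes. Their median log2 difference at 72 h was 1.31 beside 1.01 for all tested genes. After quantile normalization the counts at 72 h were 11 higher and 9 lower, and the shares of all genes under that scaling are not given here. Some pathway genes passed the filter through injured groups alone, so the counts of this list are descriptions. Many of the calls also rested on a single library. Without injured animal 02 at 168 h, the calls of Fbn1, Bmp1, Bgn, Acta2, Tagln and Fn1 as higher at that time were lost. Without control animal 02 at 72 h, Ltbp3, Furin, Smad2, Smurf1, Ski, Pmepa1 and Trim33 lost their 72 h calls.

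Among the roles of this list, genes known to respond to TGF-β had the largest median log2 difference at 72 h, 3.77. The fibroblast markers had a median of 3.77 at that time and the macrophage markers 5.79. At 72 h, 5 of the 6 genes known to respond to TGF-β were called higher, against 50.2% of all genes, and at 24 h 3 of 6, against 17.6%. Fn1, which encodes the matrix protein fibronectin, was called from 10 through 168 h, with a log2 difference of 4.71 at 72 h (SE 0.65, adjusted p = 3.02e-09), and its 168 h call was lost without injured animal 02 (1.93, adjusted p = 0.161). Postn, which encodes the matrix protein periostin, had the largest difference of the list at 168 h, with 85.8 to 448 FPKM in 3 injured and 0.463 to 2.48 in 4 control muscles (log2 difference 7.13, SE 0.83, adjusted p = 3.45e-09). It was also the only pathway gene called at 336 h (log2 difference 3.49, adjusted p = 0.00279), a call lost without injured animal 03 or 04 (adjusted p 0.062 and 0.0636).

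Among 11 tested genes of latency, processing and activation, 9 were called higher at 72 h, against 50.2% of all tested genes, and none lower at any time, where at most 1.95% of all genes were. Of these, Ltbp1, Lrrc32, Lrrc33 and Thbs1 had highest control group means of 0.934, 0.597, 0.402 and 0.816 FPKM. They passed the filter through injured groups alone and so had to be higher at some time, and counts that include them are descriptions. Lrrc33, whose product holds latent TGF-β1 on myeloid cells, was at 15.2 ± 6.88 against 0.239 ± 0.132 FPKM at 72 h (SD, n = 5 each), a log2 difference of 5.47 (SE 0.45, adjusted p = 1.07e-16). Thbs1, whose product thrombospondin-1 can activate latent TGF-β, was called from 3 to 72 h and had a log2 difference of 4.84 at 3 h (SE 0.92, adjusted p = 0.00034). Ltbp1 and Ltbp3, relatives of Ltbp2 that do bind latent TGF-β, were called at 72 h alone, by 2.44 and 1.02. The Ltbp3 difference was 0.43 without control animal 02 at 72 h, and 0.90 and 0.92 without injured animal 02 or 05.

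Of 12 SMAD and intracellular regulator genes, 7 were called higher at 72 h and none lower, a share close to the 50.2% and 0.612% of all tested genes. Tgif1, a transcriptional repressor that binds SMAD complexes, reached 10.9 ± 2.61 against 1.07 ± 0.46 FPKM at 72 h (SD, n = 5 each; log2 difference 3.35, SE 0.48, adjusted p = 7.79e-09). Smad2 was called at 48 and 72 h (1.05 and 1.19), though under 2-fold at 72 h without control animal 02 (0.87) and at 48 h without control animal 02 or injured animal 04 (0.997 and 0.85), and Smad3, Smad4 and Smad7 at no time. The 72 h calls of Smurf1, Ski, Pmepa1 and Trim33, also of the pathway list, fell under 2-fold without control animal 02 too (0.73, 0.71, 0.78 and 0.75).

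Of 4 tested other receptor genes, Tgfbr3 and Eng, both co-receptors for TGF-β ligands, were higher at 72 h, with Eng at 5.58 ± 1.29 against 1.74 ± 0.74 FPKM (SD, n = 5 each; log2 difference 1.74, SE 0.44, adjusted p = 0.000314). At 168 h Eng (-1.66, adjusted p = 0.011) and Acvr1b, an activin type I receptor (-1.41, adjusted p = 0.0348), were called lower through injured animal 02, in which Eng was listed at 0 and Acvr1b at 0.700 FPKM. The injured muscles of animals 03 and 04 held 2.73 and 3.56 FPKM of Eng among controls of 2.51 to 3.89, and 5.54 and 6.86 FPKM of Acvr1b among controls of 3.97 to 12.01. Without animal 02 the differences were 0.01 (adjusted p = 1) and -0.42 (adjusted p = 0.743), and the Acvr1b call was also lost without any of control animals 03, 04 and 05 (adjusted p 0.0681, 0.106 and 0.0789). Among 4 tested other inhibitors, Bgn, which encodes the proteoglycan biglycan, was at 94.4 ± 32.5 against 4.79 ± 1.62 FPKM at 72 h (SD, n = 5 each; log2 difference 4.29, SE 0.51, adjusted p = 4.07e-11), and Wfikkn2, whose product binds myostatin, was lower at 168 h (-1.18, adjusted p = 0.00259). Its injured values of 0.641, 1.84 and 1.87 FPKM lay below the controls at 2.22 to 4.32, and without injured animal 02 the difference was -0.71 (adjusted p = 0.2). The activin-type ligand genes Inha and Gdf11 were called at no time.

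**Figure D5:**
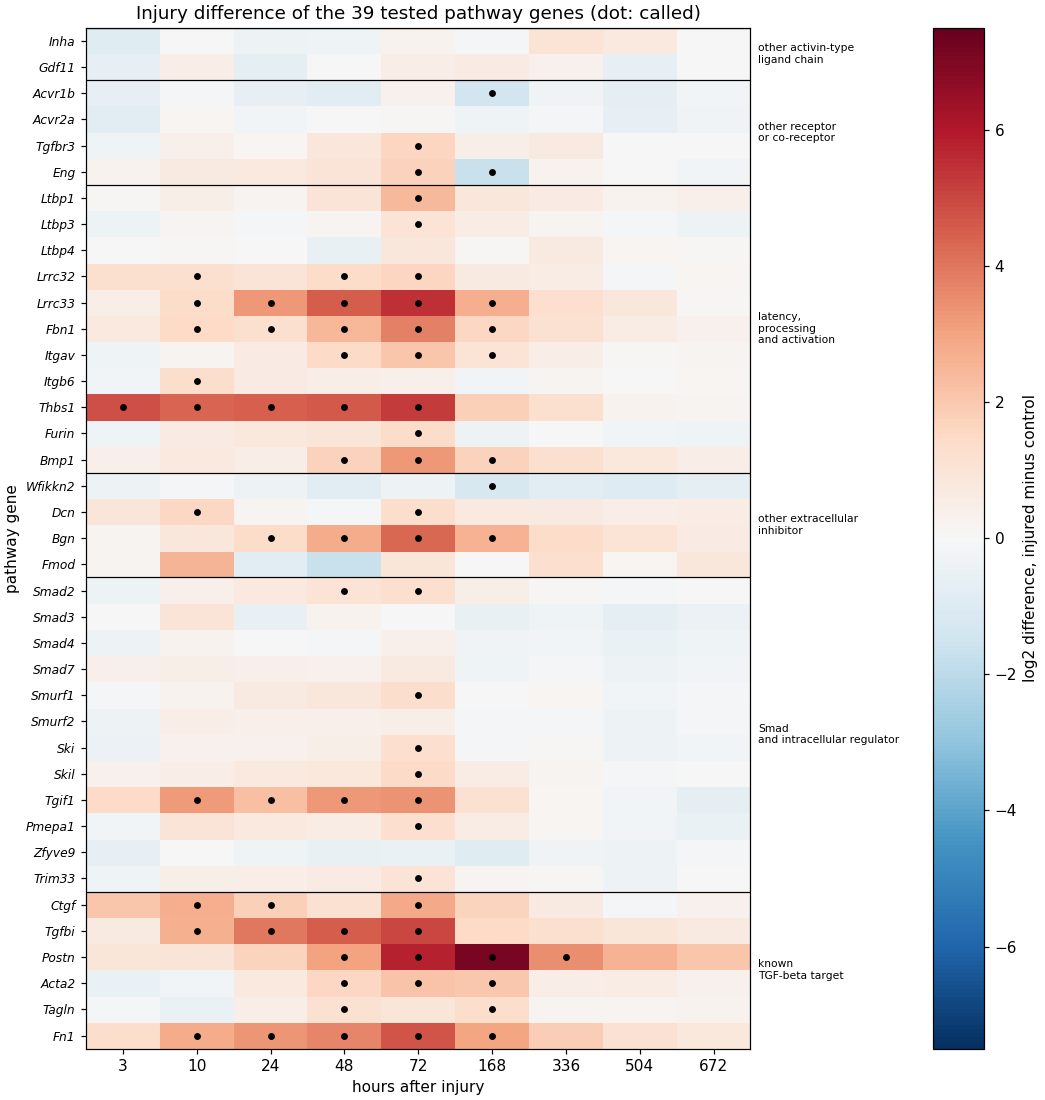
Log2 difference, injured minus control (colour), of the 39 tested pathway genes (rows, grouped by role) at the 9 time points (columns, hours), with a dot where the difference was called. Dots are most frequent at 72 h, where 25 genes were called higher, and Postn at 168 h has the largest value, 7.13.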

How the data were processed

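RNA-seq libraries (TruSeq, strand-specific, polyA) were aligned by the authors to mm9 with TopHat and quantified with the Cufflinks suite. The deposited gene and transcript tables hold FPKM per library, and whether further scaling was applied is not given in the sources used here. Sequencing depth is unknown from FPKM, so no counting interval is given. Of 92 labelled libraries 80 columns were present and 12 were not analysed here. Values of 2 libraries of 1 muscle were averaged. Analyses used limma 3.58.1 in R 4.3.3 on log2(FPKM + 0.1) with an intensity trend: 18 group means, 76 muscles, 58 residual degrees of freedom, genes that reached a mean of 1 FPKM in some group, Benjamini-Hochberg adjustment over 12099 genes, and a call at 0.05 and 2-fold. Genes above 1 FPKM numbered 5611 to 11572 per muscle; the lowest was control animal 02 at 72 h, and control animal 02 at 168 h had 3 of 6 fiber markers listed at 0. Both legs of animal 02 at 168 h had the highest FPKM sums of the series, 828110 in the injured and 755535 in the control muscle. No libraries were identical.

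Same-numbered legs at a time point came from the same animal. The correlation of their deviations from the group means had a median of 0.149 over 36 pairs, against -0.062 between different animals, and the consensus correlation used for the replicate block was 0.214. The main fit had no block, as in the authors' analysis.

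Members, the pathway list and the markers were chosen with earlier results of these data known. One further gene of the pathway list is not reported here, and the list's counts leave it out. Named genes were the members, the called pathway gene with the largest difference of each role, the 3 genes with the closest course to each member, and the markers; other named pathway genes were chosen after their values were seen. Motifs were matched in RefSeq promoter windows (GRCm38.p6), while gene positions are from the mm9 files. The limma test of a single time point was checked on simulated data.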

Additional observations from a re-analysis of the deposited data

Results flagged for a closer look

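Among groups of 4 or 5 muscles, 10 single values stood apart from the rest of their group by Dixon's test, out of 130 groups of values examined, and chance alone flags about 1 in 20. At 672 h, injured animal 05 was the high value for Tgfb2 (2.90 FPKM, the next 1.96), Tgfbr2 (7.28, the next 3.63) and Ltbp2 (0.262, the next 0.0332), and its macrophage and fibroblast marker sums, 15.1 and 287 FPKM, were also the highest of that group. At 24 h, injured animal 05 was high for Tgfb1 (8.10, the next 3.19) and injured animal 03 for Mstn (20.2, the next 6.80). At 72 h, injured animal 04 was high for Inhba (0.680, the next 0.249) and control animal 02 was low for Tgfb3 (1.06, the next 6.11). Among control muscles, animal 04 was high for Tgfb3 (9.03) and animal 03 for Tgfbr1 (6.92) at 10 h, and animal 04 was low for Acvr2b (1.26) at 336 h.

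The injury difference itself changed between neighbouring times for 4 member results by limma's interaction test: Tgfb2 from 10 to 24 h by -1.46, and Tgfb1, Tgfbr1 and Tgfbr2 from 72 to 168 h by -2.65, -1.02 and -1.39 on the log2 scale. The Tgfbr1 and Tgfbr2 changes missed the threshold under both other scalings and without single libraries, as given with the results.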

How the results depend on the processing

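The replicate block changed the calls of Tgfb1 after 10 and 336 h given with the results, with 1 member called higher at 336 h in place of 0, and 1 changed member each, in place of 0, between 3 and 10 h (Tgfb2) and between 48 and 72 h (Tgfbr2), and also passed Tgfb2 between 72 and 168 h; it changed no other call. Of the 26 member differences with an adjusted p below 0.05, all 26 kept their direction and side of the threshold with the replicate block and without the 2 unlike control libraries, 23 with pooled controls, 21 with upper quartile scaling and 19 with quantile normalization. Quantile normalization turned 1 of them, Tgfb3 at 72 h, to -0.18. Keeping the incomplete 7-day injured library turned Tgfbr1 and Tgfbr2 of that time to -0.73 and -0.41.

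Under quantile normalization 2 members were called higher and 2 lower after 48 h, 3 in each direction after 72 h, and 3 lower after 7 days, 1 member changed in each of the steps from 48 to 72 h and from 72 h to 7 days, and 1 differed among controls. Upper quartile scaling gave 2 in each direction at 48 h and 1 changed member in each of the same steps. A pseudocount of 1 gave 1 higher at 24 h, 3 higher and 0 lower at 48 h, 0 lower at 72 h, 2 higher after 7 days and 1 changed from 3 to 10 h. A minimum group mean of 5 FPKM, which removes low members, gave 0, 1, 1, 3, 3 and 2 higher in the first 6 groups, 0 lower at 48 h and 1 differing among controls. Pooled controls gave 5 higher at 10 h, 0 lower at 24 h and at 48 h, 2 higher and 1 lower after 14 days, and 1 higher and 1 lower after 21 days. Fits of each time point alone gave 0 lower at 72 h and 0 higher and 0 lower after 7 days. Library weights, whose estimation stopped before its tolerance, gave 4 higher at 10 h, 0 lower at 72 h, 2 higher and 0 lower after 7 days, 4 higher and 1 lower after 14 days and 1 higher after 21 days, with 3, 4, 2, 1, 6, 2 and 3 changed members in the first 7 steps and 6 differing among controls. With the incomplete library the counts were 0 lower at 24 h, 2 higher and 0 lower at 48 h, 1 higher and 2 lower after 7 days, 0 changed from 10 to 24 h, 7 from 72 h to 7 days and 3 over all times, and 0 differing among controls. Without the 2 unlike control libraries, 1 member changed from 3 to 10 h and 1 differed among controls. The shares of all genes called under each of these settings are not given here, so the counts are descriptions. The cause of these shifts was not tested.

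Leaving out 1 library at a time, the members called higher ranged from 0 to 1 at 3 h, 3 to 5 at 48 h, 1 to 5 after 7 days and 0 to 2 after 14 days, and those called lower from 0 to 1 at 72 h and after 7 days. The changed members ranged from 0 to 1 in the steps from 3 to 10 h, 10 to 24 h, 48 to 72 h and 7 to 14 days and from 1 to 4 from 72 h to 7 days, and those differing among controls from 1 to 2. Tgfb2 from 10 to 24 h was lost in 9 such fits, with control animals 01 or 03 of 10 h, control animals 01, 02 or 05 of 24 h, injured animals 01 or 03 of 10 h, or injured animals 04 or 05 of 24 h left out. Groups of 2 to 5 muscles and the unknown depth of low FPKM values such as those of Inhba and Ltbp2 limit all of these results.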

Other observations

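A test chosen after seeing the data averaged the injury difference over the 9 time points. For Mstn the mean log2 difference was -0.90 (SE 0.15, limma adjusted p = 3.94e-07) and for Acvr2b it was -0.34 (SE 0.12, adjusted p = 0.00808), and both stayed negative after quantile normalization (-1.20 and -0.90). Of all 12099 tested genes 11.4% were lower and 56.6% higher by this test at an adjusted p below 0.05. For Tgfb1, Fst and Ltbp2 the mean differences were 1.85, 1.71 and 1.55. For Tgfb2 the mean was 0.23 (adjusted p = 0.0228) as deposited and -0.21 (adjusted p = 0.0301) after quantile normalization, so its direction depended on the scaling. For Tgfb3 it was 0.06 (adjusted p = 0.522) and -0.23 (adjusted p = 0.000671).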
